A study of Homo sapiens with 6 samples.

Results

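Ferritin, the transferrin receptor and 8 further genes that move, sense or release iron were followed in HCT15 cells, a long-established line from a human colorectal tumour. The 10 genes were taken by symbol from a table of 12793 rows of RNA levels, and each had 1 row. They were FTH1, FTL, TFRC, STEAP3, SLC11A2, SLC40A1, NCOA4, ACO1, IREB2 and FBXL5. They were chosen with their levels in these same libraries known, so their levels and differences are given as descriptions. Where a pass of the statistical fit is mentioned for them, it shows only how a setting moves the value, and nothing is read from it. Total RNA came from 3 libraries labelled RBM15 knockout, made with a guide against RBM15 and CRISPR/Cas9 (a nuclease that cuts DNA where a guide RNA directs it), and from 3 libraries with a control guide, labelled wild type. RBM15 binds RNA and guides the enzymes that place the m6A mark, and the comparison asked what its loss in the tumour cells did to their transcripts. All 6 libraries came from the same cell line, grown in RPMI-1640 with serum. The sources used here give neither the guide sequence nor whether the edited cells were 1 clone or a pool.

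Values are FPKM, mapped fragments scaled to transcript length and library size, and are therefore levels per length. The targeted mRNA, RBM15, read 17.3, 18.5 and 18.03 FPKM in the libraries labelled knockout, against 5.97, 5.89 and 5.51 FPKM in the control libraries (log2 difference 1.48, limma adjusted p = 3.88e-06). It was higher where it was labelled as knocked out, so the directions given here depend on the labels being right. Only RNA was measured here, so this level does not show whether RBM15 protein was lost. Why the mRNA was higher was not tested. Columns summed to between 402288 and 415057 FPKM, and read totals could not be recovered, which leaves the depth unknown. Of 9 markers of colorectal epithelium 7 were listed, summing to between 3481 and 3621 FPKM in the libraries labelled knockout and to between 3803 and 3896 FPKM in the control libraries. KRT20 and CDX1 had no row, VIL1 averaged 3.87 ± 0.222 and 16.98 ± 0.168 FPKM and CDX2 9.52 ± 0.254 and 20.9 ± 0.138 FPKM in the libraries labelled knockout and the controls. By limma at adjusted p of 0.05, 5 of the 7 were lower and 1 was higher. Over all 11451 tested genes, 29.2% were lower and 25.3% higher at that threshold, and the markers were not tested as a set. The higher marker was KRT8, at 1391 ± 55.5 FPKM in the libraries labelled knockout and 1292 ± 19.9 FPKM in the controls. CDH1, at 118 ± 2.27 and 122 ± 1.14 FPKM, did not pass (adjusted p = 0.154). Of 8 macrophage markers only CD68 and CD14 were listed, summing to between 9.88 and 12.2 FPKM in the libraries labelled knockout and to between 6.26 and 6.77 FPKM in the control libraries, and of 7 erythroid markers 0 were listed. Of these 2, CD68 averaged 6.68 ± 0.632 FPKM in the libraries labelled knockout and 2.91 ± 0.216 FPKM in the controls, while the groups overlapped for CD14. The part of the epithelial and macrophage markers in the values below was not tested. In bulk RNA, fewer cells of a type and less RNA per cell cannot be told apart. Separate cultures are not stated for the 3 libraries of either group, and the p-values then reflect only differences among libraries, which may be technical.

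Cells take up iron as transferrin bound to its receptor TFRC, reduce it in the endosome with STEAP3 and move it to the cytosol through SLC11A2. What is not used is stored inside a ferritin shell built from FTH1 and FTL subunits, is released when NCOA4 carries ferritin to the lysosome, or leaves through SLC40A1 (ferroportin). The iron regulatory proteins, encoded by ACO1 and IREB2, bind a hairpin called the iron-responsive element when iron is scarce. In the 5′ untranslated region (UTR) this blocks translation, as in ferritin mRNA, and in the 3′ UTR it protects the mRNA, as in TFRC. FBXL5, an iron-binding subunit of a ubiquitin ligase, removes iron regulatory proteins when iron is plentiful.

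The hairpins tie several of these mRNAs to the iron regulatory proteins, and they were read from GENCODE 29 transcripts (GRCh38). The search took a C, 5 bases of any kind, the loop CAGTGN and 5 more bases on the transcript strand, and kept a match when the 5 bases before the loop paired in full with the 5 after it, G with T allowed. Each line gives 27 bases 5′ to 3′, written with T for U, with the loop in capitals.
FTH1: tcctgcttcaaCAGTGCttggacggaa
FTL: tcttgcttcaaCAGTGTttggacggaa
SLC40A1: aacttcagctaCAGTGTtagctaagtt
TFRC site 1: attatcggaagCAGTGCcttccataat
TFRC site 2: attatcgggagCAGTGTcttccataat
TFRC site 3: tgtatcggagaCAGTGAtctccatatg
TFRC site 4: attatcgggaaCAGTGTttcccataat

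The FTH1 match lies in the 5′ UTR at chr11:61967575-61967601 on the minus strand, in 7 of 8 coding transcripts, and the FTL match in the 5′ UTR at chr19:48965336-48965362 on the plus strand. Those of FTH1 and FTL were identical at 25 of 27 positions. SLC40A1 held its match in the 5′ UTR of 1 of 5 coding transcripts, at chr2:189580662-189580688 on the minus strand. TFRC carried 4 matches in its 3′ UTR on the minus strand, in 3 of 4 coding transcripts, at chr3:196050980-196051006, chr3:196050576-196050602, chr3:196050511-196050537 and chr3:196050464-196050490. Pairs of TFRC sites were identical at 17 to 25 of 27 positions. Among 12199 listed protein-coding genes, 25 (0.205%) had such a match in a 5′ UTR and 100 (0.82%) in a 3′ UTR, and 1 gene, TFRC, had 3 or more. SLC11A2, whose 3′ UTR is known for an iron-responsive element, gave no match in these windows under full pairing, which says nothing about binding. The 4 TFRC matches are likewise those with full pairing and need not be all of its elements.

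The ferritin subunits differed in opposite directions. FTH1 encodes the heavy subunit, which oxidises iron so that it can be stored. Its level was 1112, 1145 and 1163 FPKM in libraries 1 to 3 labelled knockout, against 1615, 1647 and 1668 FPKM in control libraries 1 to 3. Every library labelled knockout lay below every control library, by a margin far wider than the spread within a group. FTH1 averaged 1140.02 ± 25.8 FPKM in the libraries labelled knockout and 1643 ± 26.4 FPKM in the controls (SD, n = 3 each), 0.694 of the control level, and the log2 difference, labelled knockout minus control on the log2(FPKM + 1) scale, was -0.53 (SE 0.026). FTH1 (ENSG00000167996) lies on chromosome 11 at 61959718 to 61967660 on the minus strand.

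FTL encodes the light subunit, which helps the iron core to form and lacks the oxidising centre. Its level was 2367, 2402 and 2365 FPKM in the libraries labelled knockout, against 2161, 2236 and 2088 FPKM in the control libraries. The groups did not overlap here either, but the gap was narrow and the control libraries were the more spread. FTL averaged 2378 ± 21 FPKM in the libraries labelled knockout and 2161 ± 73.8 FPKM in the controls, and the log2 difference was 0.14 (SE 0.029). FTL (ENSG00000087086) lies on chromosome 19 at 48965301 to 48966878 on the plus strand. Its difference depended on scaling, at 0.04 under quantile normalization, where it no longer passed the fit, and 0.23 with the trend on GC content and length taken out.

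FTL ranked 4 of 12793 rows by mean FPKM in the libraries labelled knockout and 4 in the controls, while FTH1 ranked 28 in the libraries labelled knockout and 11 in the controls. The FTH1 to FTL ratio of FPKM was 0.47, 0.476 and 0.492 in the libraries labelled knockout, against 0.748, 0.737 and 0.799 in the control libraries. The ratio averaged 0.479 ± 0.0114 in the libraries labelled knockout and 0.761 ± 0.0331 in the controls, so that the balance of the subunit mRNAs leaned further to the light subunit in all 3 libraries labelled knockout. The summed level of both subunits was 3480, 3547 and 3528 FPKM in the libraries labelled knockout and 3776, 3883 and 3756 FPKM in the control libraries. That sum was lower by a smaller proportion than FTH1 alone, with a ratio of 0.925.

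Reads of ferritin genes can be misplaced. FTH1 shares 1267 of its 2030 exonic bases with BEST1, a chloride channel gene on the plus strand that runs into it, and 5 of 8 BEST1 transcripts reach FTH1 exons. The sources used here do not say whether counting used strand. BEST1 measured 22.3, 0.755 and 0.837 FPKM in the libraries labelled knockout and 39.05, 36.9 and 38.3 FPKM in the control libraries, which was 0.0659% to 2.01% of FTH1 in the libraries labelled knockout and 2.24% to 2.42% in the controls. FTH1 and BEST1 summed to 1135, 1145 and 1164 FPKM in the libraries labelled knockout and to 1654, 1684 and 1706 FPKM in the control libraries, a log2 difference of -0.55. BEST1 was itself lower in every library labelled knockout, so adding it could not narrow the gap between the groups. FPKM are levels per length of each gene, so the sum does not give misplaced reads back to FTH1. How reads were divided between FTH1 and BEST1 was not tested. BEST1 fell by 3.21 on the log2 scale (limma adjusted p = 0.0233), with adjusted p of 0.0564 to 0.0736 when any library but knockout library 1 was left out, and the log2 difference was -4.44 without knockout library 1 (2.33e-06). GENCODE 29 also annotates 25 FTH1 and 16 FTL pseudogenes, of which 0 were listed in the table, and how reads were divided between the genes and these copies is not known.

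**Figure D1:**
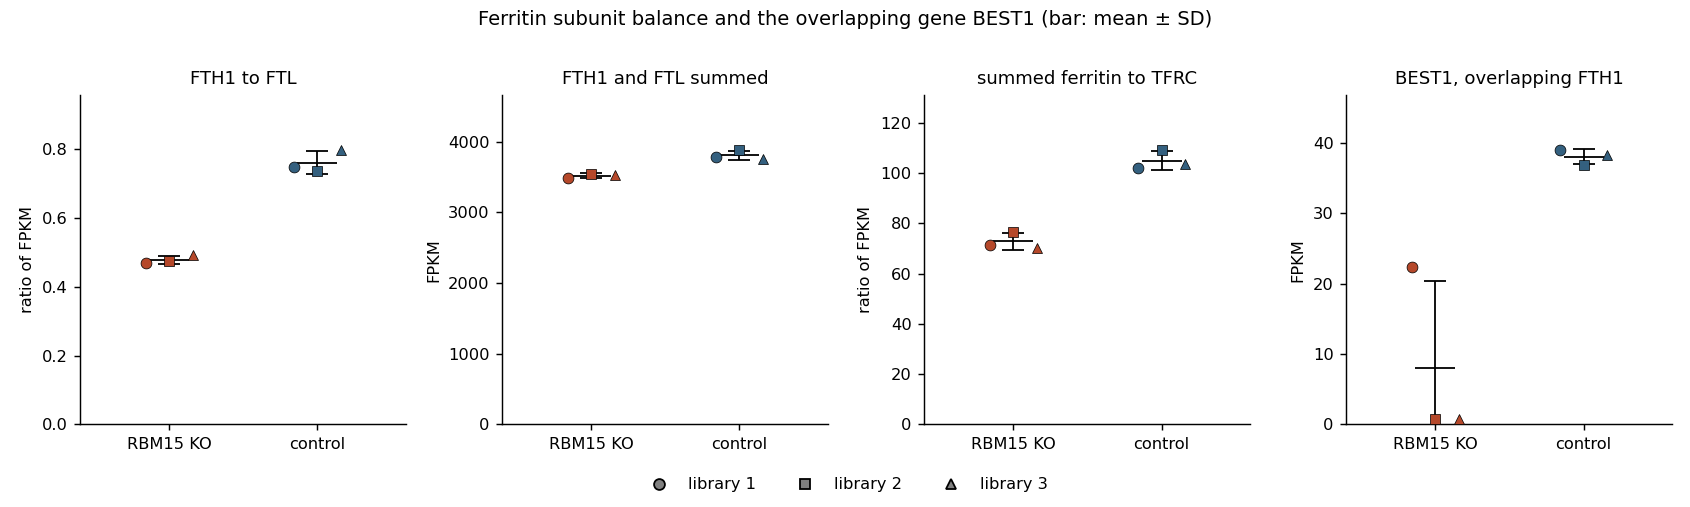
Ratio of FTH1 to FTL FPKM, summed FTH1 and FTL FPKM, ratio of summed ferritin to TFRC FPKM, and BEST1 FPKM in each library, with RBM15 KO (labelled knockout) left and control right, points for libraries and bars for mean ± SD (n = 3). The FTH1 to FTL ratio lay between 0.47 and 0.492 in the libraries labelled knockout and between 0.737 and 0.799 in the controls, and BEST1 was near 22.3 FPKM in 1 library labelled knockout and under 1 FPKM in the others.

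The uptake genes did not share a direction. TFRC, the receptor for iron-loaded transferrin, had 48.7, 46.3 and 50.2 FPKM in the libraries labelled knockout, against 37.01, 35.5 and 36.2 FPKM in the control libraries. All 3 libraries labelled knockout lay above all controls. TFRC averaged 48.4 ± 1.94 FPKM in the libraries labelled knockout and 36.3 ± 0.733 FPKM in the controls, a ratio of 1.33, and the log2 difference was 0.41 (SE 0.039). TFRC (ENSG00000072274) lies on chromosome 3 at 196027183 to 196082189 on the minus strand. Summed ferritin was 71.5, 76.6 and 70.3 times TFRC in the libraries labelled knockout and 102, 109 and 104 times TFRC in the control libraries, on the FPKM scale.

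SLC11A2 encodes the metal transporter DMT1, which carries ferrous iron out of the endosome. Its level was 11.5, 11.1 and 10.8 FPKM in the libraries labelled knockout, against 17.2, 17.6 and 15.8 FPKM in the control libraries. The groups were well apart, with a ratio of means of 0.66 and a log2 difference of -0.56 (SE 0.053), close to that of FTH1. SLC11A2 (ENSG00000110911) lies on chromosome 12 at 50979401 to 51028566 on the minus strand.

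STEAP3, the endosomal ferric reductase, had 7.48, 9.08 and 11.8 FPKM in the libraries labelled knockout, against 8.34, 8.61 and 7.31 FPKM in the control libraries. The groups overlapped. Its log2 difference of 0.18 (SE 0.145) was 0.03 without knockout library 3 and 0.32 without knockout library 1, and it was 0.12 on removing control library 3. STEAP3 (ENSG00000115107, chromosome 2 at 119223831 to 119265652, plus strand) shares 500 exonic bases with the antisense gene STEAP3-AS1.

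SLC40A1, the iron exporter of mammalian cells, was low, with 0.301, 0.358 and 0.416 FPKM in the libraries labelled knockout and 0.24, 0.369 and 0.319 FPKM in the control libraries. The groups overlapped, and the gene fell below the filter of a mean of 1 FPKM, so it did not enter the fit. SLC40A1 (ENSG00000138449) lies on chromosome 2 at 189560579 to 189583758 on the minus strand.

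NCOA4, the receptor that delivers ferritin to the lysosome, reached 63.5, 62.5 and 65.3 FPKM in the libraries labelled knockout, against 58.5, 55.3 and 53.6 FPKM in the control libraries. The groups did not overlap, and the log2 difference was 0.19 (SE 0.041), with means of 63.8 ± 1.41 FPKM in the libraries labelled knockout and 55.8 ± 2.52 FPKM in the controls. NCOA4 (ENSG00000266412) lies on chromosome 10 at 46005088 to 46030714 on the minus strand.

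Of the sensors, IREB2 was slightly higher and ACO1 stood apart in 1 library. IREB2 encodes iron regulatory protein 2, which is controlled by its breakdown. It measured 27.02, 27.8 and 28.5 FPKM in the libraries labelled knockout, against 24.99, 24.1 and 23.9 FPKM in the control libraries, without overlap. Its log2 difference of 0.18 (SE 0.038) became 0.08 with the trend on GC content and length taken out, where it no longer passed the fit. IREB2 (ENSG00000136381) lies on chromosome 15 at 78437431 to 78501456 on the plus strand.

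ACO1 encodes iron regulatory protein 1, which is a cytosolic aconitase when it holds an iron-sulphur cluster. It measured 13.4, 13.5 and 24.9 FPKM in the libraries labelled knockout, against 14.3, 12.9 and 14.2 FPKM in the control libraries. Knockout library 3 lay apart and the other 2 sat within the range of the controls. The log2 difference was 0.25 (SE 0.218), -0.03 without knockout library 3, 0.39 without knockout library 1 or 2, and 0.10 with the GC and length trend taken out. With ACO1 as the denominator, the IREB2 to ACO1 ratio of FPKM was 2.02, 2.06 and 1.14 in the libraries labelled knockout and 1.75, 1.87 and 1.69 in the control libraries. By a limit set after these values were seen, 1.8 times each other library of the group, ACO1 was among 5 of 6501 genes averaging 10 FPKM or more over the libraries labelled knockout whose library 3 lay that far above, where library 1 had 3 such genes and library 2 had 5. ACO1 (ENSG00000122729) lies on chromosome 9 at 32384603 to 32454769 on the plus strand.

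FBXL5 had 16.8, 17.1 and 21.7 FPKM in the libraries labelled knockout, against 20.1, 23.1 and 23.7 FPKM in the control libraries. Knockout library 3 again lay above the other 2 and inside the control range. The log2 difference was -0.26 (SE 0.106), -0.37 without knockout library 3, and between -0.33 and -0.19 without any other library. FBXL5 did not pass the fit with all libraries. It did with a replicate block and, at -0.30, with the GC and length trend taken out. It also did without knockout library 3, the library that lay apart from the other 2. Nothing is read from these passes. FBXL5 (ENSG00000118564, chromosome 4 at 15604539 to 15681679, minus strand) shares 18 exonic bases with FAM200B. Knockout library 3 held the highest level of its group for 7 of the 9 iron-handling genes in the fit, where 36.2% of all tested genes had their highest level there.

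**Figure D2:**
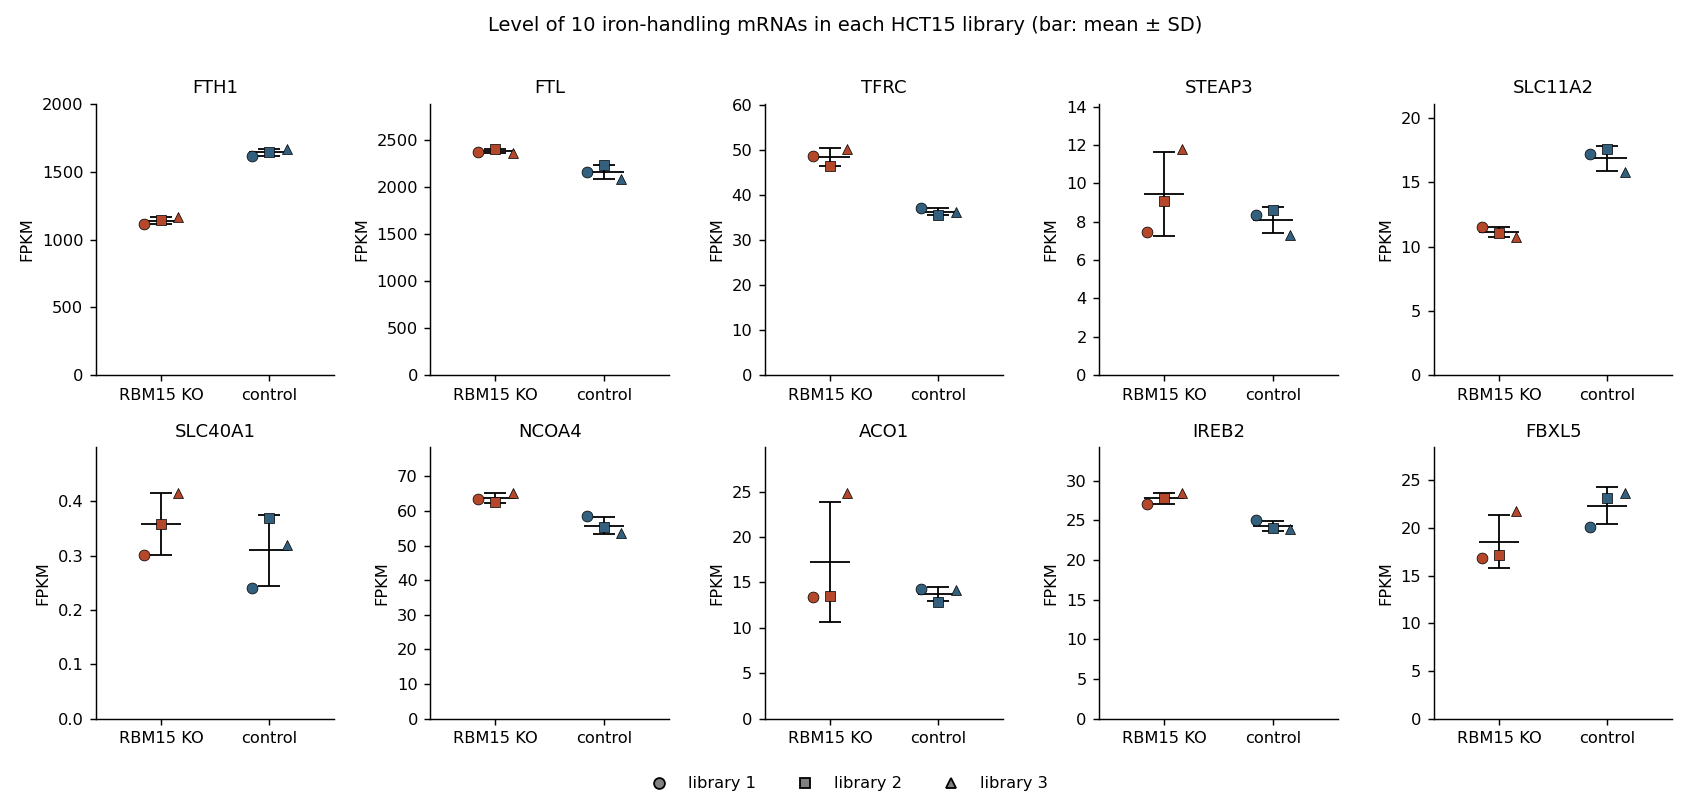
FPKM of each of the 10 iron-handling mRNAs by library, on axes that start at 0, with RBM15 KO (labelled knockout) left and control right, points for libraries and bars for mean ± SD (n = 3). FTH1 and SLC11A2 were lower, and FTL, TFRC, NCOA4 and IREB2 higher, in all 3 libraries labelled knockout, and ACO1 stood apart in knockout library 3 at 24.9 FPKM.

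By level, the order in the control libraries was FTL, FTH1, NCOA4, TFRC, IREB2, FBXL5, SLC11A2, ACO1, STEAP3 and SLC40A1. Ranges of neighbouring genes in that order did not overlap in the control libraries. In the libraries labelled knockout ACO1 lay above SLC11A2, so that ACO1 came next to FBXL5 and SLC11A2 next to STEAP3, and in both of these pairs the ranges overlapped.

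Over all genes, 6245 of 11451 tested (54.5%) passed the fit at adjusted p of 0.05, 25.3% as higher and 29.2% as lower in the libraries labelled knockout. Of the 10 iron-handling genes 9 entered the fit and 6 passed, with TFRC, FTL, NCOA4 and IREB2 higher and FTH1 and SLC11A2 lower, and since these genes were chosen on this contrast nothing is read from that count, which IREB2 or FTL leaves and FBXL5 joins under the settings named above. The same 6 genes had groups that did not overlap, as had 63.0% of all tested genes, 29.6% higher and 33.4% lower. Their 9 log2 differences ran from -0.56 to 0.41 with a median of 0.18, against a median of -0.02 for all tested genes. The middle 90% of all tested genes lay between -0.67 and 0.47, and each of the 9 differences lay inside that range. Of the mRNAs with a hairpin match, FTH1 was lower, FTL and TFRC were higher, and SLC40A1 was below the filter with groups that overlapped. The matches do not all lie in the same UTR, so nothing about the hairpins is read from these directions.

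**Figure D3:**
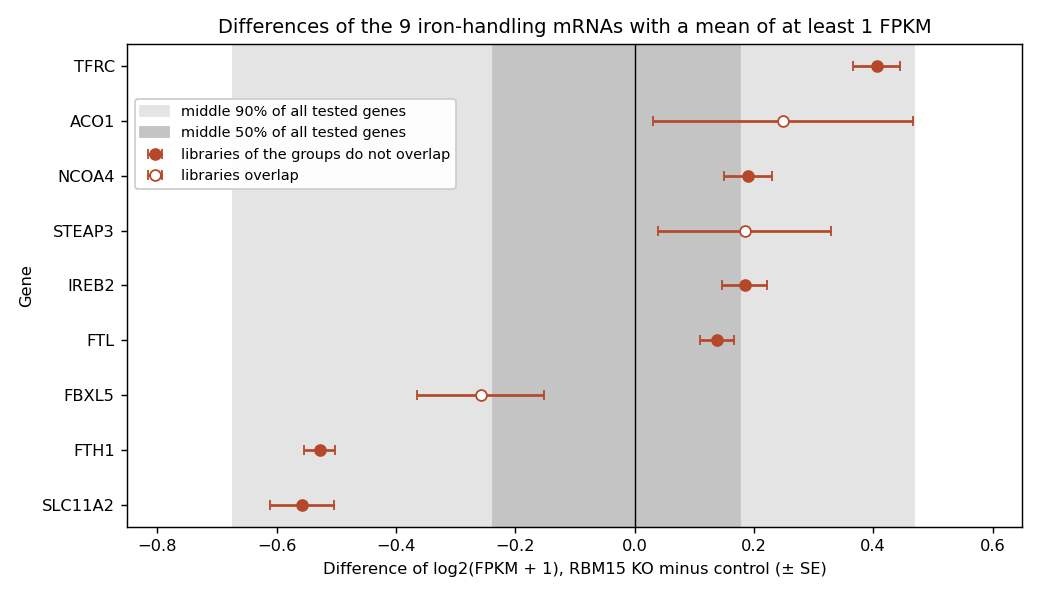
Difference of log2(FPKM + 1), RBM15 KO (labelled knockout) minus control, with its standard error for the 9 iron-handling genes in the fit, over bands that hold the middle 50% and 90% of 11451 tested genes. Values run from -0.56 for SLC11A2 to 0.41 for TFRC, and the 3 open points (ACO1, STEAP3 and FBXL5) are those whose groups overlap.

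The genes whose pattern over the 6 libraries was most like that of the main iron genes were found by the Euclidean distance between log2(FPKM + 1) values, each taken relative to its own control mean, among 11086 tested genes with a symbol. Nearest to FTH1 were SYF2 (distance 0.0121), a splicing factor gene, with 28.9 ± 0.62 and 42.1 ± 0.776 FPKM in the libraries labelled knockout and the controls, CTSD (0.0334), which encodes a lysosomal protease, and TAPBP (0.0565), which loads peptides on MHC class I. TAB2 (0.0428), TMEM64 (0.0435) and PRPF38A (0.0444) were nearest to FTL. For TFRC they were SMC1A (0.0365), a cohesin subunit gene, DCBLD2 (0.0408) and the chaperone gene HSP90AA1 (0.044). The size of the difference between the groups is itself part of this distance, which says nothing of shared function or control.

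Other genes of iron metabolism were counted from 11 lists taken from general knowledge. Of 109 genes 94 were listed and 90 tested, and 18 rose and 30 fell in the libraries labelled knockout (limma, adjusted over all tested genes), with a median log2 difference of -0.01. The share that passed, 53.3%, was close to the 54.5% of all tested genes. Over all tested genes 25.3% were higher and 29.2% lower, the shares to set beside the counts of each list below. No list was tested as a set. In lists this small the share that passed ran from 40.0% to 87.5%. The split depended on scaling, since 28 rose and 27 fell after median centring, 27 and 26 under quantile normalization and 25 and 28 when all libraries were scaled to 1 sum.

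Among 9 tested genes of iron uptake and endosomal release 4 fell and 0 rose, so that 44.4% passed, against 54.5% of all tested genes. LCN2, a secreted protein that binds bacterial iron carriers, fell to 2.47 ± 0.666 FPKM in the libraries labelled knockout, against 8.42 ± 0.514 FPKM in the controls (log2 difference -1.46, adjusted p = 0.000155). STEAP2 (3.48 ± 0.242 FPKM labelled knockout, 5.7 ± 0.523 FPKM control) and STEAP1 (3.56 ± 0.0691 FPKM labelled knockout, 5.8 ± 0.895 FPKM control), relatives of the reductase STEAP3, also fell. HFE, a partner of the transferrin receptor, fell by 0.32 on the log2 scale (adjusted p = 0.0261), a call that was lost without knockout library 1 (0.0646) or 3 (0.078). Of the 6 genes of iron export and hepcidin, such as CP, HEPH and HAMP, 0 had a row.

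Cytosolic chaperones that hand iron to its users went apart. The poly(C)-binding protein gene PCBP2 fell to 353 ± 7.87 FPKM in the libraries labelled knockout, against 461 ± 0.983 FPKM in the controls (log2 difference -0.39, adjusted p = 4.58e-05), and the glutaredoxin gene GLRX3 rose to 82.2 ± 2.87 FPKM in the libraries labelled knockout, against 59.2 ± 4.62 FPKM in the controls (0.47, adjusted p = 0.000647). The other 3 of 5 did not pass, and BOLA2 and BOLA2B among them are near-identical copies whose levels are therefore uncertain. Of 7 tested genes for the turnover of iron regulatory proteins and NCOA4, 3 rose and 0 fell, and the share that passed was 42.9%. Those that rose were HERC2, a ligase of NCOA4 (8.7 ± 0.178 FPKM labelled knockout, 7.15 ± 0.192 FPKM control), the ferritin autophagy receptor gene TAX1BP1 (97.3 ± 3.45 FPKM labelled knockout, 82.02 ± 6.16 FPKM control) and CUL1, the scaffold of the FBXL5 ligase (44 ± 1.03 FPKM labelled knockout, 39.2 ± 0.807 FPKM control). The log2 difference of HERC2 was 0.25, and 0.13 with the GC and length trend taken out.

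In the list of other mRNAs known for an iron-responsive element 5 of 6 were tested and 1 fell. The profilin gene PFN2 fell by 0.19 on the log2 scale (adjusted p = 0.0182), a call that failed on removing control library 1 (0.059), knockout library 1 (0.0545) or knockout library 3 (0.0516).

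Among 21 tested genes of mitochondrial iron import and iron-sulphur cluster assembly 9 fell and 1 rose, so that 47.6% passed, against 54.5% of all tested genes. HSCB, a cochaperone that passes on new clusters, fell to 6.27 ± 1.17 FPKM in the libraries labelled knockout, against 11.04 ± 1.09 FPKM in the controls (log2 difference -0.74, adjusted p = 0.00225). BOLA1 fell by 0.54 on the log2 scale, NUBPL, which serves complex I, by 0.34 and the mitoferrin gene SLC25A28 by 0.27, the last without a call once the GC and length trend was taken out (adjusted p = 0.0926). Of 9 tested genes of cytosolic cluster assembly 3 fell and 1 rose, and the share that passed was 44.4%. NUBP1 fell by 0.21 and CIAO3 by 0.21 on the log2 scale, CIAO3 without a call once that trend was taken out (adjusted p = 0.235) and NUBP1 then at -0.14 (adjusted p = 0.0437). CIAO2A, which matures iron regulatory protein 1, rose by 0.15 (adjusted p = 0.0435), a call that failed on removing either control library 2 or 3 or knockout library 1 or 3 (adjusted p of 0.0886 to 0.124) and without the variance trend (0.0677). The fall of MMS19 by 0.11 (adjusted p = 0.0416) failed on removing any single library (adjusted p of 0.054 to 0.124) and under median centring (0.107).

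Haem genes changed in both directions. Of 10 tested genes of haem synthesis 2 rose and 3 fell. ALAS1, the first and rate-limiting enzyme, rose to 42.5 ± 1.29 FPKM in the libraries labelled knockout, against 29.3 ± 1.6 FPKM in the controls (log2 difference 0.52, adjusted p = 0.00017). The later enzyme genes PPOX (6 ± 0.476 FPKM labelled knockout, 10.2 ± 1.43 FPKM control) and ALAD (9 ± 0.283 FPKM labelled knockout, 12 ± 0.779 FPKM control) fell, as did the porphyrin transport gene TMEM14C by 0.27 on the log2 scale. Of 8 tested genes of haem breakdown and transport 2 rose and 5 fell, so that 87.5% passed, against 54.5% of all tested genes. The constitutive haem oxygenase gene HMOX2 rose to 49.8 ± 1.16 FPKM in the libraries labelled knockout, against 33.6 ± 2.14 FPKM in the controls, while the inducible HMOX1 fell to 10.1 ± 0.422 FPKM in the libraries labelled knockout, against 17.9 ± 0.897 FPKM in the controls. BLVRB, which reduces a product of haem breakdown, fell by 0.52 and the haem transporter gene SLC48A1 by 0.35 on the log2 scale. The difference of BLVRB was -0.31 with the GC and length trend taken out.

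A list of 7 genes held transcription factors known to act on ferritin or transferrin receptor genes. It also held KEAP1, which is not a transcription factor but restrains the product of NFE2L2. Of the 7, 5 rose and 0 fell in the libraries labelled knockout, so that 71.4% passed. KEAP1 stood at 33.7 ± 0.561 FPKM there and 33.9 ± 1.48 FPKM in the controls (limma adjusted p = 0.903). BACH1, a haem-sensing repressor of the ferritin and HMOX1 genes, rose to 9.64 ± 0.303 FPKM, against 6.91 ± 0.4 FPKM in the controls (log2 difference 0.43, adjusted p = 0.000729). Its partner genes MAFG (18.1 ± 0.334 FPKM labelled knockout, 13.3 ± 0.203 FPKM control) and MAFK (14.4 ± 0.72 FPKM labelled knockout, 11.02 ± 0.659 FPKM control) rose as well. MYC, which can raise TFRC transcription, rose to 55.9 ± 0.763 FPKM in the libraries labelled knockout, against 41.95 ± 1.03 FPKM in the controls. NFE2L2, which encodes the activator NRF2, stood at 67.6 ± 2.64 FPKM there and 71.4 ± 2.12 FPKM in the controls (adjusted p = 0.135).

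Ferroptosis is a form of cell death driven by iron and lipid peroxides. Of 9 tested genes of that list 2 rose and 4 fell, so that 66.7% passed, against 54.5% of all tested genes. GPX4, which removes lipid peroxides, fell to 263 ± 9.1 FPKM in the libraries labelled knockout, against 337 ± 7.41 FPKM in the controls (log2 difference -0.36, adjusted p = 0.000186). The cystine importer genes SLC7A11 and SLC3A2 fell by 1.12 and 0.37 on the log2 scale, and the reductase gene POR fell by 0.28. With the GC and length trend taken out, the log2 difference was -0.11 for GPX4 (adjusted p = 0.00878) and -0.16 for POR (adjusted p = 0.00248), both still past the threshold.

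**Figure D4:**
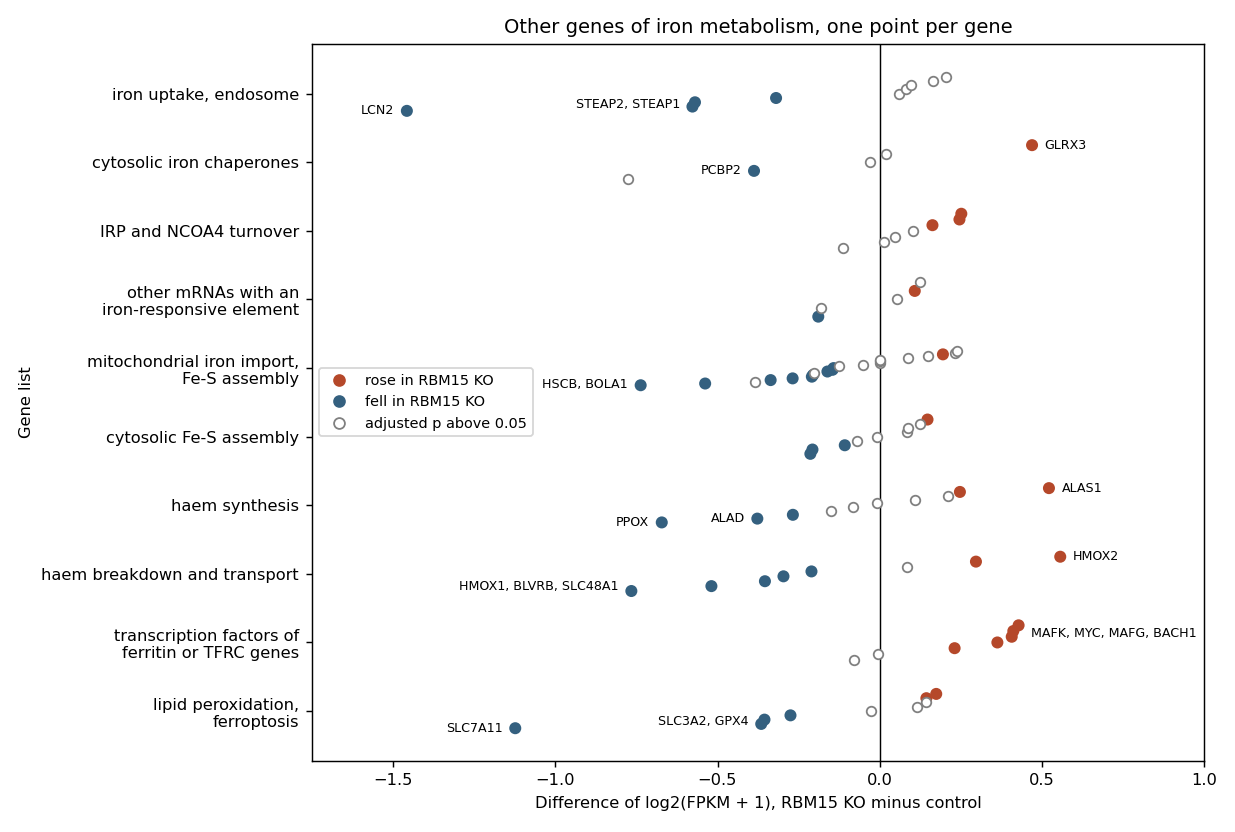
Difference of log2(FPKM + 1), RBM15 KO (labelled knockout) minus control, for 90 tested genes in 10 lists of iron metabolism (the list of export and hepcidin had none), 1 point per gene, filled where the adjusted p was at most 0.05. Among the filled points 18 lie right of 0 and 30 left, from -1.46 for LCN2 to 0.56 for HMOX2.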

How the data were processed

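The authors deposited FPKM for 6 libraries in 1 table, per the file headers. Per the labels' protocols, RNA was extracted with TRIzol and read as pairs of 150 bp on an Illumina NovaSeq, and the build was hg38, with StringTie 2.0.4 and HISAT2 2.2.1 named, per the submitters' processing notes. The sources used here do not give settings, strand use or the filter on rows. Low values were searched for whole-read steps: at most 0.93% of ratios between values below 0.5 FPKM fell within 0.1% of each other, so no read numbers came out and depth is unknown.

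The 11451 genes averaging 1 FPKM or more entered limma 3.58.1 in R 4.3.3 on log2(FPKM + 1), which understates the change of low genes, with a variance trend, 2 groups, no covariates, 2-sided p-values and Benjamini-Hochberg adjustment over every gene in the fit (threshold 0.05). The fit was tested on simulated data with independent noise, few changed genes and no shift in scaling. These libraries differ from that setting, so the simulation bears on the working of the code and not on the calls made here. Coordinates and UTR sequences are from GENCODE 29, on the same build, by gene identifier. The iron-handling genes and the lists were chosen with earlier results of these data known. From each list up to 4 genes past the threshold with the largest differences were named, with RBM15, BEST1 and the 3 nearest patterns of FTH1, FTL and TFRC. NFE2L2, KEAP1, BOLA2, BOLA2B and the markers KRT8 and CDH1 were named after their values were seen. The result of 1 gene that this rule picks is not reported here. Further tools were matplotlib 3.10.9, numpy 2.4.6 and pandas 2.3.3 under Python 3.11.15.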

Additional observations from a re-analysis of the deposited data

How the results depend on the processing

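The alternatives were omitting the filter or raising it to a mean of 5 FPKM, a pseudocount of 0.1, rescaling to a common sum, median centring, quantile normalization, no variance trend, removal of a GC and length trend, a replicate block and leaving out each library. The number of genes that passed ran from 5083 to 6612 over them, and between 5451 and 5646 without 1 library, against 6245. The 5083 came with the filter at 5 FPKM, which tests fewer genes, and the 6612 without a filter, which tests more. Those counts are therefore not over the same genes as the 6245. Median centring gave 28 other iron genes that rose, against 18, and 27 that fell, against 30. No same-numbered pair of libraries deviated together (correlations of -0.035, -0.037 and under 0.001 in size), so the numbers were not taken as pairs, and with a replicate block 5782 genes, 47 other iron genes and 7 of the iron-handling genes passed, against 6245, 48 and 6, the added 1 being FBXL5. The log2 difference of the FTH1 to FTL ratio of FPKM was -0.67, and ran from -0.69 to -0.63 without 1 library. Removal of the GC and length trend moved FTH1 to -0.47, FTL to 0.23, TFRC to 0.31, IREB2 to 0.08, SLC11A2 to -0.63 and NCOA4 to 0.14, and quantile normalization moved FTH1 to -0.46 and FTL to 0.04. The cause was not tested. IREB2 lost its call with that trend removed and FTL under quantile normalization, while FBXL5 gained one with that trend removed, with the replicate block and without knockout library 3. Among the genes given with a test, a call was lost 28 times, for HFE, PFN2, SLC25A28, CIAO3, CIAO2A, MMS19 or BEST1, and removal of the trend moved GPX4 to -0.11, BLVRB to -0.31, POR to -0.16, HERC2 to 0.13 and NUBP1 to -0.14 with their calls kept. ACO1, which passed no threshold, changed sign without knockout library 3, to -0.03. The unknown depth limits what can be said of SLC40A1.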
